A study of Homo sapiens with 12 samples.

Results

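A demethylating agent was set against a platinum drug in NT2/D1 cells, a human embryonal carcinoma line of testicular origin. The 3 day 5-aza group received 10 nM 5-aza deoxycytidine (5-aza), renewed daily for 3 days. The cisplatin group received 0.5 µM cisplatin for 6 hours and was harvested 24 hours after the drug was removed. Each group held 3 bead arrays, so 6 of the 12 arrays of the series were compared, and 3 control arrays (untreated in the sample labels, vehicle in the series description) serve as a landmark. All arrays came from this single line, and dose, exposure and time of harvest differ between the drugs, so that agent and schedule cannot be told apart. A probe was kept where 3 or more of the 6 arrays gave it a detection p below 0.05, which left 16769 of 47231 probes. Each gene symbol was read from its brightest kept probe, which gave 10215 of 20045 genes. The series text calls the arrays biological triplicates. At the edge of that rule, 1542 probes were detected on exactly 3 arrays, with a median intensity of 6.35 (log2), and 2242 on exactly 2, with 6.22.

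5-aza is built into DNA in place of deoxycytidine and traps DNA methyltransferases on it, so that methylation is lost as cells divide. Cisplatin forms adducts and crosslinks between DNA bases, which block replication and transcription and stabilise p53. Embryonal carcinoma cells resemble the stem cells of the early embryo, keep p53 in its normal form in most tumours, and depend on a NODAL, POU5F1, SOX2 and NANOG network for their undifferentiated state.

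The arrays of the groups were not equally tight. The median standard deviation across replicates was 0.14 (log2) with 3 day 5-aza, 0.35 with cisplatin and 0.17 in controls. Cisplatin replicate 1 lay closest to the controls, with a mean correlation of 0.983 to them, against 0.949 and 0.937 for cisplatin replicates 2 and 3 and 0.961 to 0.963 for the 3 day 5-aza arrays. Cisplatin replicate 3 had 19824 detected probes, against 15658 to 16123 on the 3 day 5-aza arrays and 15435 to 17566 in controls. All arrays lay on 1 chip in group order, so position on the chip and group cannot be told apart. The labelled cell type was checked by 9 embryonal carcinoma markers with a probe. Of these, 8 were detected on every array of both treatments, and ZFP42 on none. Their summed linear intensity was 34500 to 38600 with 3 day 5-aza, 33300 to 44400 with cisplatin and 47400 to 49900 in controls.

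The promoters of genes on which the comparison turned are printed as the 250 bases before the start of transcription, from RefSeq on GRCh38.p14. In background terms, methylation of CG in a promoter is associated with silencing. The first 4 are examples of CpG content, the substrate of DNA methyltransferases, among genes that separated the drugs, with CG in capitals. They do not stand for the called genes as a set. HES4 and S100A4 were higher with 3 day 5-aza and hold 35 and 7 CG, and GDF3 and CDKN1A were lower and hold 0 and 27.
HES4 (chr1:1000098-1000347, minus strand): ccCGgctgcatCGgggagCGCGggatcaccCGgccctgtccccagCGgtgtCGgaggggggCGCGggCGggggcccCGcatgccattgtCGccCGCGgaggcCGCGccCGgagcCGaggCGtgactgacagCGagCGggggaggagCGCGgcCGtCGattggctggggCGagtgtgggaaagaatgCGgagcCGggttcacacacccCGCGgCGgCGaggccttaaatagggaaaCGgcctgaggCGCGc
S100A4 (chr1:153545807-153546056, minus strand): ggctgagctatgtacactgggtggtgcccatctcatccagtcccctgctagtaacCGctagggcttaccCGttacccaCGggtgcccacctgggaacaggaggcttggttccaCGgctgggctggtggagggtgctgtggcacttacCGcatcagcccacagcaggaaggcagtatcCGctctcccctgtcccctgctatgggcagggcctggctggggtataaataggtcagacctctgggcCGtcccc
GDF3 (chr12:7695776-7696025, minus strand): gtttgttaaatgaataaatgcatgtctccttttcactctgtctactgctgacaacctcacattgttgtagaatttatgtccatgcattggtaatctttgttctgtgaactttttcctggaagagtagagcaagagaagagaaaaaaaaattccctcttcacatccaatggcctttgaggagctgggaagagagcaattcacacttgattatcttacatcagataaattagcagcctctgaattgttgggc
CDKN1A (chr6:36678464-36678713, plus strand): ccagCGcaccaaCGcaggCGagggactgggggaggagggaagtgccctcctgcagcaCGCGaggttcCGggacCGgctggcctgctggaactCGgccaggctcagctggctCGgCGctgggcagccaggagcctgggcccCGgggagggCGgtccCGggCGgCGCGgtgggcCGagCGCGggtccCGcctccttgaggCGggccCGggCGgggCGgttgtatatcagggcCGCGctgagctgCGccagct
The next 2 belong to interferon response genes that were higher with 3 day 5-aza, with matches on either strand to GAAA, any 2 bases and GAAA in capitals, 2 in ISG15 and 3 in IFI6. Interferon regulatory factors bind repeats of this kind, and the string occurs in 3.07% of the 27305 promoters of the table and in 2.31% of those of the 8320 tested genes with a window. In the interferon list 4 of the 6 called higher members with a window held a match (PSME1 and IFI35 held none), as did 11 of the 21 members not called.
ISG15 (chr1:1013247-1013496, plus strand): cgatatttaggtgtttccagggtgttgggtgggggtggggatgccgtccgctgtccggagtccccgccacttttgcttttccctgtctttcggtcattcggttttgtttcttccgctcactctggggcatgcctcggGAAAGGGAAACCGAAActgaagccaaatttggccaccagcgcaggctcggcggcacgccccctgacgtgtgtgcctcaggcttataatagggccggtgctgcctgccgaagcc
IFI6 (chr1:27672193-27672442, minus strand): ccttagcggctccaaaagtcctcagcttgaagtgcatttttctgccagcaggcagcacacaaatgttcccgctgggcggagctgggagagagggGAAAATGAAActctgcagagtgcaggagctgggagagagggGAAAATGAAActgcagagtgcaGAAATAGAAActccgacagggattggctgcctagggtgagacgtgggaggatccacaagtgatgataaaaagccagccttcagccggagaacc
The last 2 belong to metallothionein genes that were lower with 3 day 5-aza, with matches to TGCACNC or TGCGCNC on either strand in capitals, the core of the metal response element. A match occurs in 24.7% of all promoters and in 33.5% of those of tested genes. MT2A holds 7 matches and MT1H 8, and matches may overlap each other. In that list a match was held by 4 of the 4 members called lower with a window, 2 of the 2 called higher and 6 of the 9 not called.
MT2A (chr16:56608334-56608583, plus strand): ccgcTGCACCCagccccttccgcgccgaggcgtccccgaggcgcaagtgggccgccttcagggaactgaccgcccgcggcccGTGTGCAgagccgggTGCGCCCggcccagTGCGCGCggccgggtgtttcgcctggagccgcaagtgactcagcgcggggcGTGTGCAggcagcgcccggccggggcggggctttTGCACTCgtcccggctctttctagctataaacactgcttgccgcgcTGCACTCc
MT1H (chr16:56669564-56669813, plus strand): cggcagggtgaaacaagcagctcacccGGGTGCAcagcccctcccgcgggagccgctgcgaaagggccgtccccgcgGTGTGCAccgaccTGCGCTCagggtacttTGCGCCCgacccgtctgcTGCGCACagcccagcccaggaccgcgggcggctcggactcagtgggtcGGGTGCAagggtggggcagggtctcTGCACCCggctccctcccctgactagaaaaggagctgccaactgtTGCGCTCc
A match is a string of letters and not a measured site. Only 333 of the 423 genes higher with 3 day 5-aza (78.7%) had a window, and a check of CpG content over that set is void because too large a share of it has none.

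Which transcripts separate the 3 day 5-aza treatment from the cisplatin treatment was asked by a direct test of the 6 arrays. Of 10215 genes, 618 (6.05%) passed at an adjusted p under 0.05 (limma with Benjamini-Hochberg adjustment), 423 higher with 3 day 5-aza (4.14%) and 195 lower (1.91%). All 618 differed by at least 1.5-fold, 482 by at least 2-fold and 58 by at least 4-fold. For 3603 genes (35.3%) the arrays of the treatments did not overlap, 2158 higher (21.1%) and 1445 lower (14.1%). Among probes, 855 of 16769 passed (5.1%), and of the 3815 without a gene symbol 104 did (2.73%), 60 higher and 44 lower. The count of called genes depended on single arrays. It was 2915 without cisplatin replicate 1, 312 without replicate 2 and 686 without replicate 3, and all 618 genes were among the 2915. Without 3 day 5-aza replicate 1, 2 or 3 it was 60, 50 or 45. All 618 genes kept their direction in each of these fits. A fit pools the spread of both groups, so leaving out an array also changes its error, and that part was not tested. The median difference over all genes was 0.09 (log2, 3 day 5-aza minus cisplatin) and −0.22 under median scaling, where 157 genes were higher and 257 lower.

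The genes highest with 3 day 5-aza over cisplatin were developmental regulators, a calcium-binding protein and signalling genes. IRX3, a homeobox gene of neural patterning, had an intensity of 10.16, 10.28 and 10.55 (log2) with 3 day 5-aza, against 6.9, 7.32 and 6.58 with cisplatin. The groups lay apart by 10.5-fold (log2 difference 3.39 ± 0.24, adjusted p = 0.000967, n = 3 arrays per group), and control arrays at 6.71, 6.45 and 7.16 overlapped the cisplatin arrays. HES4, a repressor of the HES family that acts downstream of Notch, had 10.53, 10.71 and 10.69 with 3 day 5-aza, against 6.98, 8.54 and 6.89 with cisplatin (3.17 ± 0.41, adjusted p = 0.00647). The cisplatin arrays did not sit together, as replicate 2 stood well above the others. S100A4, a calcium-binding protein linked to motility, had 9.91, 10.02 and 10.18 with 3 day 5-aza and 7.51, 6.83 and 6.37 with cisplatin (3.13 ± 0.29, adjusted p = 0.00159), and its second probe, undetected on every cisplatin array, was at least 4.46-fold higher. Every 3 day 5-aza array of S100A4 lay above every cisplatin and control array.

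A group of 4 genes among the 12 largest was undetected on every cisplatin array. CCR7, a chemokine receptor, had 8.28, 8.36 and 8.13 with 3 day 5-aza, against 5.26, 5.28 and 5.17 with cisplatin, which made it at least 3.96-fold higher (adjusted p = 0.000606). SH2D3C, a signalling adaptor, was at least 5.15-fold higher, the secreted phospholipase PLA2G2A at least 6.15-fold and the anti-Müllerian hormone receptor AMHR2 at least 3.28-fold. All 4 were undetected in controls too. Each fold is a lower bound, taken against the dimmest detected signal of each cisplatin array or the probe's own value where that was higher. The other 5, with their log2 differences, were ZCCHC12 (2.84), the autophagy receptor OPTN (2.82), the melanosome protein PMEL (2.61), the neuronal TAGLN3 (2.60) and the monoamine oxidase MAOA (2.60). MAOA was detected on 1 cisplatin array, so its size is partly against background. A second TAGLN3 probe gave 0.57 and did not pass (adjusted p = 0.122), so its probes disagree on size. That second probe was dim, with 6.18, 6.42 and 6.28 on the cisplatin arrays and detection on 2 of them.

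The genes lowest with 3 day 5-aza relative to cisplatin included a phosphodiesterase, a ribonucleotide reductase subunit and a NODAL antagonist. PDE4B, which degrades cyclic AMP, had 5.64, 5.61 and 5.81 with 3 day 5-aza, against 8.99, 8.31 and 9.21 with cisplatin, and was at least 5.45-fold lower (adjusted p = 0.00142). A second PDE4B probe, also undetected with 3 day 5-aza, was at least 2.17-fold lower and did not pass (adjusted p = 0.051). RRM2, the regulatory subunit of the enzyme that makes deoxyribonucleotides, had 6.1, 6.05 and 6.06 with 3 day 5-aza, against 7.79, 9.17 and 10.33 with cisplatin, or at least 6.52-fold lower (adjusted p = 0.0181). Its cisplatin arrays lay far apart while the 3 day 5-aza arrays lay together and were not detected, and the adjusted p was 0.00131 to 0.105 with 1 array left out. LEFTY1, a secreted NODAL antagonist and itself a NODAL target, had 6.05, 6.01 and 6.03 with 3 day 5-aza, against 8.73, 8.56 and 9.49 with cisplatin, and was at least 5.78-fold lower (adjusted p = 0.00148). Controls at 8.24, 8.32 and 8.33 lay between the treatments.

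The remaining genes of that end, with log2 differences or bounds, were the metalloproteinase inhibitor TIMP4 (−2.48), TMT1A (at least 2.77-fold lower), the ERK phosphatase DUSP6 (−2.40), GDF3 (−2.33), LRRN2 (−2.20), the Notch effector HEY2 (−2.19), JPT1 (−2.16), CLUH (at least 3.12-fold lower) and the damage response gene PHLDA3 (−2.53). Of the 3 day 5-aza arrays, PHLDA3 was detected on 1 and HEY2 on 2, so those sizes are partly against background. JPT1 was −2.82 to −1.62 with 1 array left out. Of the 73 genes chosen by rule that passed, 19 passed with any single array left out, among them IRX3, S100A4, CCR7, PLA2G2A, MAOA, GDF3, TIMP4, LEFTY1 and PDE4B. The others lost the call mostly without a 3 day 5-aza array (51 to 54 of the 73) or without cisplatin replicate 2 (29), and 5 without replicate 3 and 0 without replicate 1. All 73 kept their direction in those fits, and how far the changed error of the fit made the losses was not tested.

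**Figure D1:**
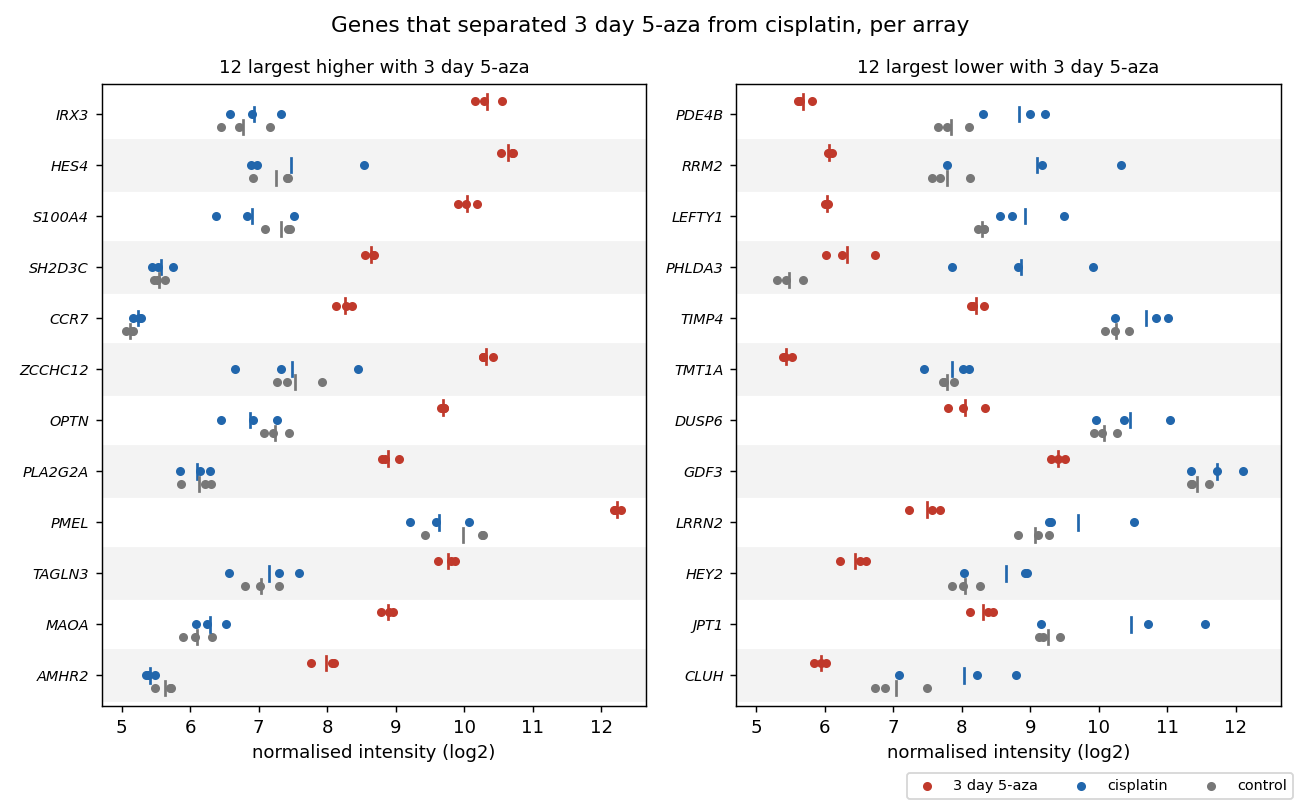
Normalised intensity (log2) of the 12 genes with the largest positive and the 12 with the largest negative difference, with each of the 3 arrays of 3 day 5-aza, cisplatin and control as a point and the group mean as a bar. The 3 day 5-aza points of IRX3 sit at 10.16 to 10.55, against 6.58 to 7.32 for cisplatin, and those of LEFTY1 at 6.01 to 6.05, against 8.56 to 9.49 for cisplatin.

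Set beside control, most genes called in the reported fit lay farther from it with 3 day 5-aza than with cisplatin. Of the 618 called genes, 542 (87.7%) had a 3 day 5-aza mean farther from the control mean than the cisplatin mean was, against 56.4% of all 10215 genes. The count was 385 of the 423 higher genes (91%) and 157 of the 195 lower genes (80.5%). Without cisplatin replicate 1, the array nearest control, it was 508 of 618 (82.2%), against 46.2% of all genes. Of the 2915 genes called without that array it was 1277 (43.8%), below the share of all genes. Calls and this count rest on the same arrays, and a gene passes more readily where the scattered cisplatin arrays agree. The share among called genes is thus partly fixed by the selection. Over all genes the median absolute distance from control was 0.31 to 0.32 (log2) on the 3 day 5-aza arrays. On cisplatin replicates 1, 2 and 3 it was 0.2, 0.38 and 0.4. Both treatments were tested against the same 3 controls, so their differences share them. With 3 day 5-aza 2020 genes were above control (19.8%) and 1533 below (15%), while with cisplatin 5 were above (0.0489%) and 0 below with limma, where 478 were above and 583 below at an unadjusted p under 0.05. The 5 were CDKN1A, GDF15, GADD45A, SESN1 and ACTA2. In 105 of the 618 genes every 3 day 5-aza array and every cisplatin array lay on opposite sides of every control, as in 209 of all 10215 (2.05%).

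**Figure D2:**
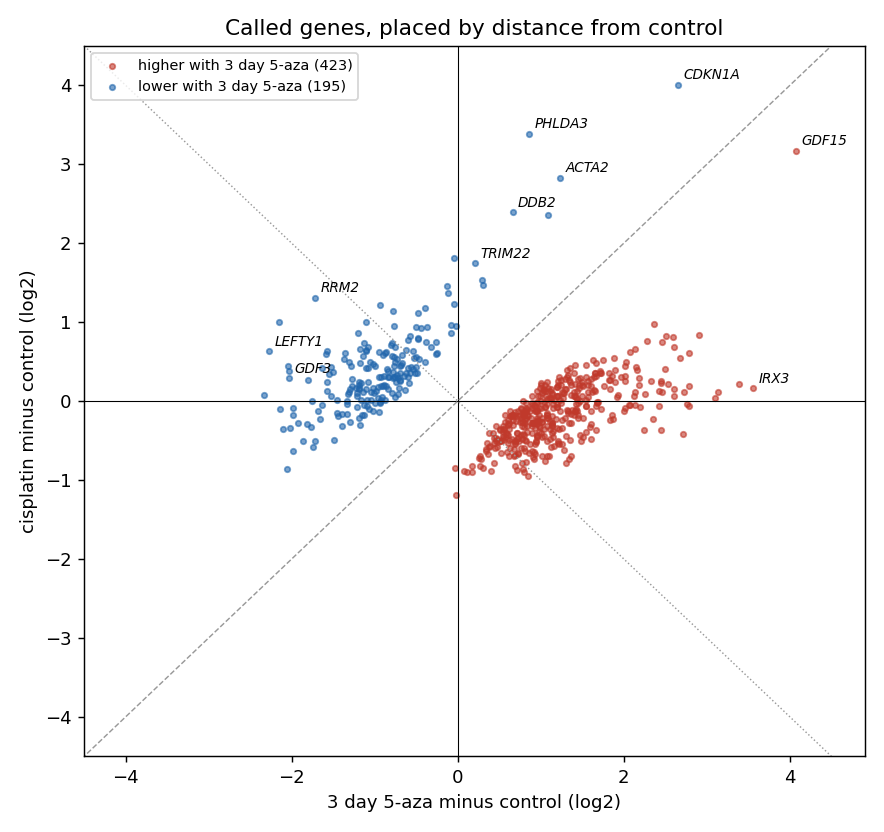
Each point is a called gene, placed by the log2 difference of 3 day 5-aza from control (horizontal) and of cisplatin from control (vertical), red for the 423 higher and blue for the 195 lower with 3 day 5-aza. On the dashed line both differences are equal, on the dotted line equal and opposite. Most red points lie right of 0 near the horizontal axis, while CDKN1A, PHLDA3, DDB2 and ACTA2 stand high on the cisplatin axis, and GDF15 is high on both.

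The genes were then read by 23 lists. The share of members called ran from 0% for cholesterol synthesis (23 measured), mesendoderm (6) and the study's demethylated genes (4) to 40.9% for metallothionein and oxidative stress genes (22), beside 6.05% of all genes. List medians ran from −0.68 for that last list to 0.38 for interferon and antigen presentation genes (32), beside 0.09 for all genes. Under median scaling all genes stood at −0.22, and the medians of 9 lists that lay above 0 lay below it, with values of −0.03 for the ATF4 and mitotic lists and −0.15 to −0.36 for the others. In the lists with none called, 7, 0 and 0 members were lower and 0, 2 and 0 higher at an unadjusted p under 0.05 for cholesterol synthesis, mesendoderm and the study's genes. Of all genes, 1149 (11.2%) were lower and 1774 (17.4%) higher at that level.

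**Figure D3:**
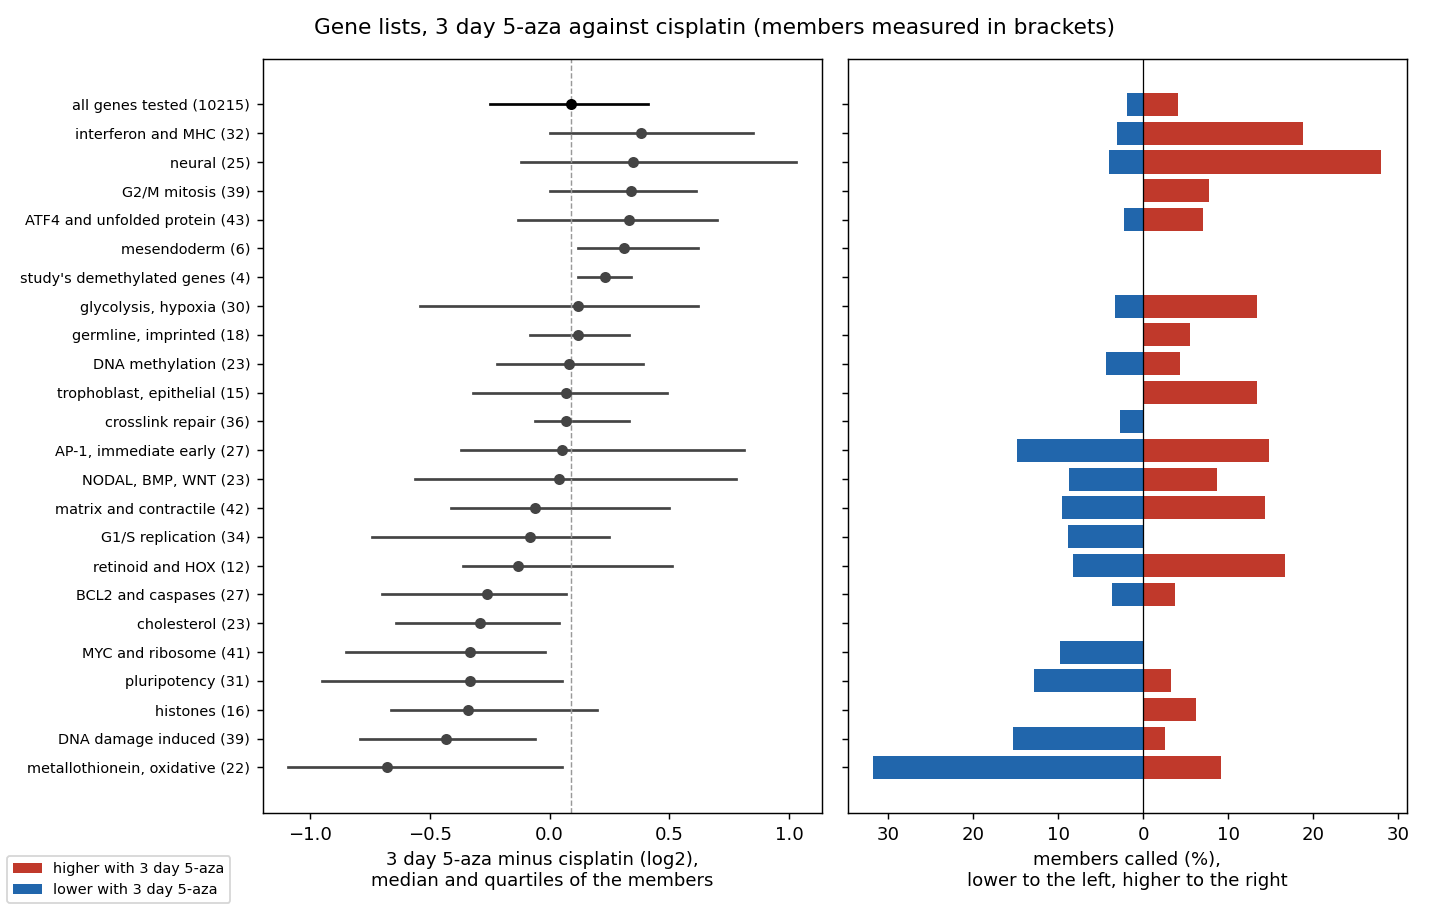
Left, the median and quartiles of the log2 difference, 3 day 5-aza minus cisplatin, for each list, with the dashed line at the all-gene median of 0.09. Right, the percentage of measured members called lower (blue) or higher (red) with 3 day 5-aza. Metallothionein and oxidative stress genes have the lowest median (−0.68), and interferon genes the highest (0.38).

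Genes induced by DNA damage, mostly targets of p53, were higher with cisplatin than with 3 day 5-aza in 6 of the 7 members called. Of 39 measured, 6 were lower with 3 day 5-aza and 1 higher (17.9% called, beside 6.05% of all genes). A negative difference was found in 31 members, and the median was −0.43, beside 0.09 for all genes. Against control their mean per array was 0.65, 0.58 and 0.59 (log2) with 3 day 5-aza, and 1, 0.93 and 1.2 with cisplatin, so that each cisplatin array lay above each 3 day 5-aza array, replicate 1 included. CDKN1A, the cell cycle inhibitor p21, had 9.68, 9.68 and 9.62 with 3 day 5-aza, against 10.69, 11.03 and 11.33 with cisplatin and 6.93, 7.01 and 7.09 in controls. Its difference was −1.36 ± 0.21, adjusted p = 0.012, on top of a rise over control of 2.65 with 3 day 5-aza and 4.01 with cisplatin. PHLDA3, an AKT inhibitor, had 6.73, 6.02 and 6.25 with 3 day 5-aza, against 7.86, 8.82 and 9.91 with cisplatin (−2.53 ± 0.46, adjusted p = 0.0208). PHLDA3 was detected on 1 of the 3 day 5-aza arrays, so its size is partly against background. The cisplatin arrays of PHLDA3 lay far apart, and the difference was −3.03 to −2.01 with 1 array left out.

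DDB2, which recognises damaged bases in nucleotide excision repair, was undetected on the 3 day 5-aza arrays (6.03, 5.98 and 6.2) and had 7.3, 7.59 and 8.49 with cisplatin, and was at least 2.64-fold lower with 3 day 5-aza (adjusted p = 0.0181). TRIM22, a restriction factor induced by both p53 and interferon, had 7.2, 7.38 and 7.23 with 3 day 5-aza, against 8.87, 8.33 and 9.23 with cisplatin (−1.54 ± 0.25, adjusted p = 0.0135). Its 3 day 5-aza arrays overlapped the controls at 7.38, 6.84 and 6.96. SPATA18, a mitochondrial quality gene, and TP53I3, an oxidoreductase, were the other called members lower with 3 day 5-aza, SPATA18 by at least 1.29-fold and TP53I3 with a difference of −1.09. TP53I3 had 8.55, 8.37 and 8.49 with 3 day 5-aza, against 9.28, 9.41 and 9.99 with cisplatin and 9.56, 9.45 and 9.09 in controls, so the 3 day 5-aza arrays lay below control there.

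GDF15, a secreted stress cytokine, was the member that went the other way. It had 9.46, 9.66 and 9.69 with 3 day 5-aza, against 8.62, 8.73 and 8.74 with cisplatin and 5.67, 5.35 and 5.56 in controls, a difference of 0.91 ± 0.18, adjusted p = 0.0278. The call was lost without any one 3 day 5-aza array or without cisplatin replicate 2 (adjusted p 0.0119 to 0.171 over the arrays left out). Members that did not pass included GADD45A, at 10.28, 10.06 and 10.12 with 3 day 5-aza and 10.36, 10.47 and 10.27 with cisplatin (−0.21 ± 0.18, adjusted p = 0.492), and the early response gene IER3 (−0.17 ± 0.18, adjusted p = 0.601). The 95% interval of the GADD45A difference was −0.63 to 0.20, and a second probe gave −0.92 (adjusted p = 0.102). PPM1D, the phosphatase that shuts off p53 signalling, missed the threshold at −0.72 ± 0.21, adjusted p = 0.0765, with every cisplatin array above every 3 day 5-aza array. It passed under median scaling (−1.09, adjusted p = 0.0272). Of the 6 fits with 1 array left out, it passed only without cisplatin replicate 3 (−0.86, adjusted p = 0.036). The apoptosis effector BAX was at −1.50 ± 0.41, adjusted p = 0.0679, again with cisplatin arrays above. Without cisplatin replicate 1, 12 members were lower and 6 higher, beside 1132 and 1783 of all 10215 genes. Without replicate 2, 3 were lower and 0 higher, beside 74 and 238 of all genes. Under median scaling 6 were lower and 0 higher, beside 257 and 157 of all genes. In crosslink repair (36 measured, median 0.07) DDB2 was the single called gene (2.78% of the list, beside 6.05% of all genes).

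**Figure D4:**
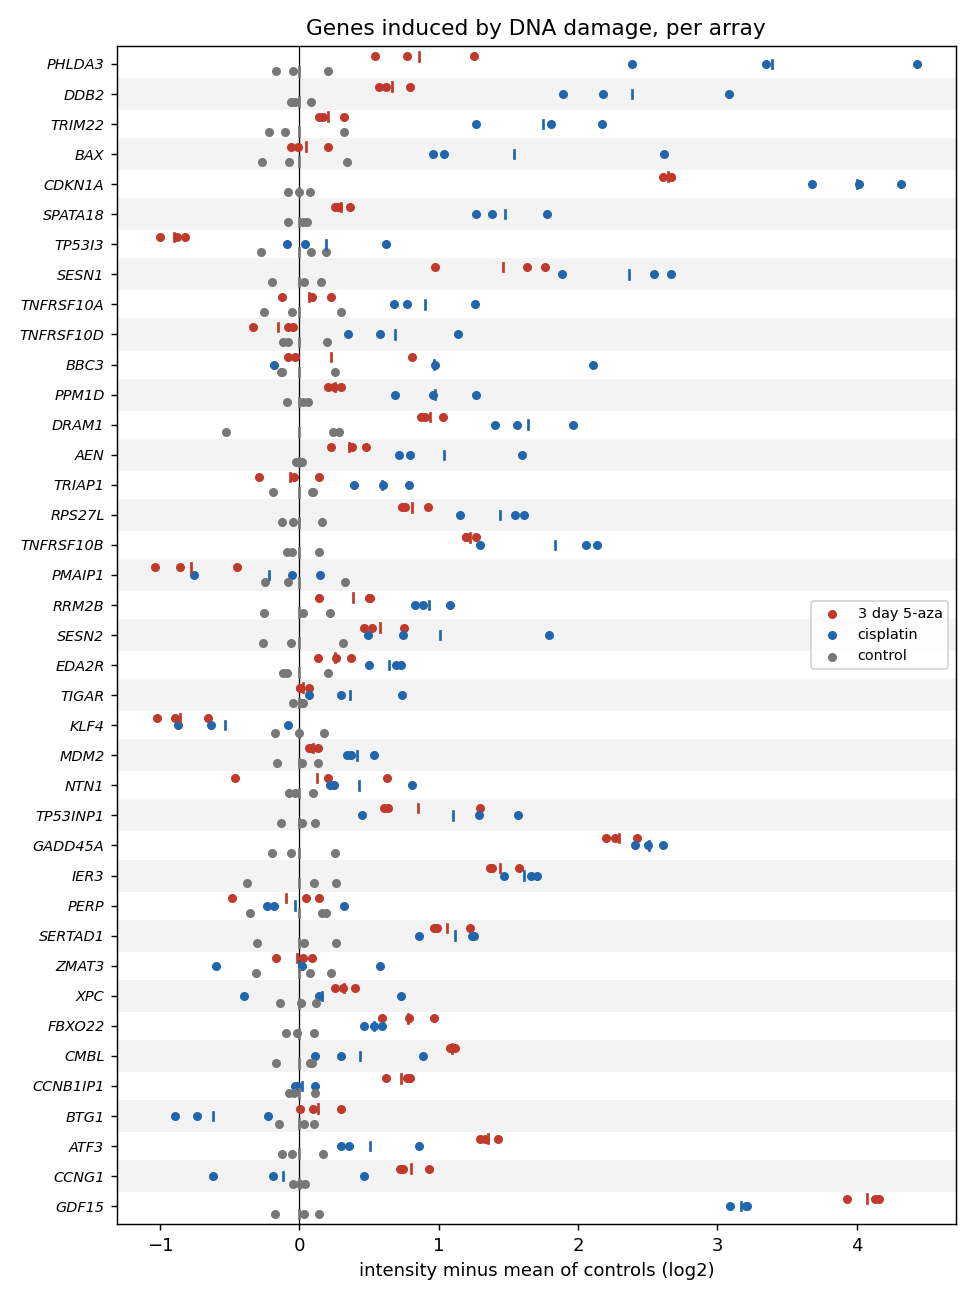
Log2 intensity of the 39 measured genes induced by DNA damage, minus the mean of the controls, with each array as a point and each group mean as a bar, ordered by the difference of 3 day 5-aza from cisplatin. PHLDA3 stands at the top with a difference of −2.53 and GDF15 at the bottom with 0.91, and most cisplatin points lie right of the 3 day 5-aza points.

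Metallothioneins, small proteins that bind zinc and copper and can also bind platinum, were lower with 3 day 5-aza in 5 of the 7 genes measured. With oxidative stress genes they formed a list of 22 measured members, 7 lower and 2 higher (40.9% called, beside 6.05% of all genes). The list median was −0.68, beside 0.09 for all genes. The 7 lower members were MT1E, MT2A, MT1M, MT1H, MT1F, the zinc exporter SLC30A1 and the glutathione peroxidase GPX1. MT2A had 9.11, 9.08 and 9.2 with 3 day 5-aza, against 10.53, 11.31 and 11.25 with cisplatin and 10.64, 10.56 and 10.3 in controls (−1.90 ± 0.24, adjusted p = 0.00647). MT1E had 9, 9.18 and 9.36 with 3 day 5-aza, against 10.73, 11.93 and 11.07 with cisplatin (−2.06 ± 0.31, adjusted p = 0.0106). For both, each 3 day 5-aza array was below each control and each cisplatin array. SLC30A1 had 7.18, 7.4 and 7.14 with 3 day 5-aza, against 8.56, 8.92 and 8.97 with cisplatin (−1.58 ± 0.20, adjusted p = 0.00638), and its second probe gave −1.32. MT1M was undetected on the 3 day 5-aza arrays (5.35, 5.3 and 5.33) and had 7.79, 6.51 and 6.34 with cisplatin, at least 1.4-fold lower with 3 day 5-aza.

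Metallothioneins are near-identical in sequence, so a probe may read its neighbours, and the genes cannot be counted as independent. MT1X (−0.99 ± 0.27, adjusted p = 0.0687) and MT1G (undetected on every 3 day 5-aza array, adjusted p = 0.128) did not pass. The list mean per array, relative to control, was −0.42, −0.32 and −0.34 with 3 day 5-aza, and 0.18, 0.22 and 0.18 with cisplatin. With 3 day 5-aza 11 members were called below control and 3 above, beside 15% and 19.8% of all genes. With cisplatin 0 were called in either direction with limma, where 5 of all 10215 genes were above and 0 below. At an unadjusted p under 0.05, 3 members were above control with cisplatin and 0 below, beside 478 and 583 of all genes. The 2 members higher with 3 day 5-aza were TXNIP, a thioredoxin inhibitor (11.57, 12.03 and 12.02 against 10.4, 10.79 and 10.08 with cisplatin), and the autophagy receptor SQSTM1 (0.95). NQO1, GCLM and TXNRD1, targets of the oxidative stress factor NRF2, had differences of −0.78, −0.82 and −0.84 and did not pass (adjusted p = 0.0621, 0.0501 and 0.144). Without cisplatin replicate 1, 2 or 3 the list had 13, 4 or 9 members lower, beside 1132, 74 or 258 of all 10215 genes.

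**Figure D5:**
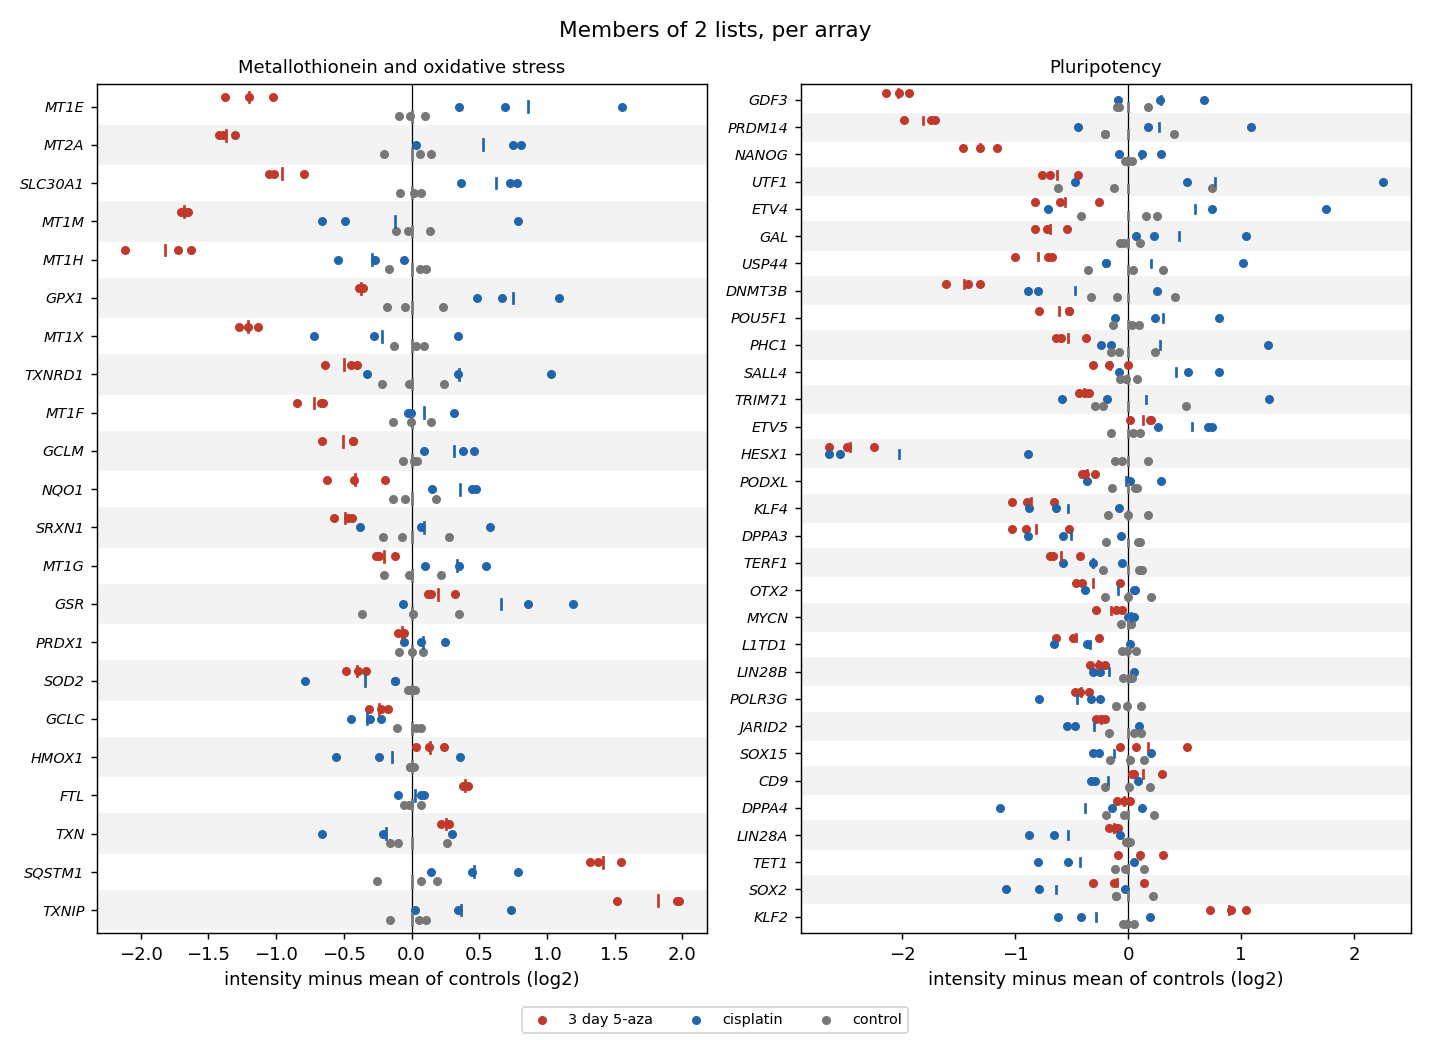
Log2 intensity minus the mean of the controls for the 22 metallothionein and oxidative stress genes (left) and the 31 pluripotency genes (right), with each array as a point and each group mean as a bar. MT1E, MT2A, GDF3, PRDM14 and NANOG have all 3 day 5-aza points left of all cisplatin points, while TXNIP and KLF2 have them to the right.

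Pluripotency genes were lower with 3 day 5-aza in part. Of 31 measured, 4 were lower and 1 higher (16.1% called, beside 6.05% of all genes), with a median of −0.33. GDF3, a growth factor of the undifferentiated state, had 9.41, 9.3 and 9.5 with 3 day 5-aza, against 11.72, 11.35 and 12.11 with cisplatin and 11.61, 11.36 and 11.34 in controls (−2.33 ± 0.23, adjusted p = 0.00201). NANOG, a core transcription factor, had 9.8, 10.1 and 9.95 with 3 day 5-aza, against 11.38, 11.18 and 11.55 with cisplatin (−1.42 ± 0.20, adjusted p = 0.00824), and a second probe gave −1.04 (adjusted p = 0.0544). Cisplatin arrays of both genes overlapped the controls, and the 3 day 5-aza arrays lay below them. PRDM14, a germ cell and stem cell regulator, had 7.01, 6.97 and 6.73 with 3 day 5-aza, against 8.27, 8.89 and 9.8 with cisplatin (−2.08 ± 0.35, adjusted p = 0.0156), with the cisplatin arrays far apart. The neuropeptide GAL was the fourth (−1.14), and KLF2 was the member higher with 3 day 5-aza (1.17 ± 0.25, adjusted p = 0.0356).

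The core factors POU5F1 and SOX2 did not pass. POU5F1 had 10.5, 10.24 and 10.5 with 3 day 5-aza, against 10.91, 11.26 and 11.83 with cisplatin (−0.92 ± 0.26, adjusted p = 0.0726), and its second probe gave −0.22 (adjusted p = 0.618). SOX2 was at 0.54 ± 0.29, adjusted p = 0.27, with 12.64, 12.45 and 12.9 on the 3 day 5-aza arrays, against 12.73, 11.68 and 11.97 on the cisplatin arrays, and its second probe gave 0.02. DPPA3 (−0.31) and PHC1 (−0.81) did not pass either. A second DPPA3 probe, detected on 1 of the 3 day 5-aza arrays, gave −0.68 (adjusted p = 0.137), with every cisplatin array above every 3 day 5-aza array. Both core factors passed once cisplatin replicate 1 was left out, with −1.13 for POU5F1 (adjusted p = 0.0114) and 0.84 for SOX2 (adjusted p = 0.0244). POU5F1 also passed with all 12 arrays in the fit (−0.92, adjusted p = 0.00812), and both passed with array weights. In the NODAL, BMP and WNT list (23 measured, median 0.04) 17.4% were called, beside 6.05% of all genes. Here LEFTY1 and the WNT repressor TCF7L1 were lower and the WNT effector LEF1 and the activin subunit INHBE higher. TCF7L1 had 7.39, 7.04 and 7.03 with 3 day 5-aza, against 8.6, 8.82 and 10.14 with cisplatin (−2.04 ± 0.38, adjusted p = 0.0215), and LEF1 was at 0.95 ± 0.20, adjusted p = 0.0325, with a second probe, undetected on every cisplatin array, at least 1.58-fold higher.

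MYC and genes of ribosome assembly were lower with 3 day 5-aza in 4 of 41 members (9.76% called, beside 6.05% of all genes). None was higher, and the median was −0.33. At an unadjusted p under 0.05, 1 was higher and 14 lower, beside 17.4% and 11.2% of all genes. MYC had 7.86, 8.09 and 8.06 with 3 day 5-aza, against 10.24, 9.99 and 8.83 with cisplatin and 9.84, 10.16 and 10.07 in controls (−1.68 ± 0.34, adjusted p = 0.0315). With 1 array left out the difference was −2.11 to −1.41. A second MYC probe was undetected on every 3 day 5-aza array and at least 3.06-fold lower there (adjusted p = 0.00143). ODC1, the first enzyme of polyamine synthesis and a MYC target, had 10.72, 10.58 and 10.76 with 3 day 5-aza, against 12.1, 12.67 and 12.96 with cisplatin (−1.89 ± 0.25, adjusted p = 0.00684). The ribosome assembly genes GRWD1 and RRP12 were lower, with differences of −1.28 and −0.89. For ODC1, GRWD1 and RRP12 the cisplatin arrays overlapped the controls and the 3 day 5-aza arrays lay below them.

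Genes of neural ectoderm were higher with 3 day 5-aza in 7 of 25 members, with 1 lower (32% called, beside 6.05% of all genes). Their median was 0.35, beside 0.09 for all genes. Besides IRX3 and HES4 the higher members were the microtubule regulator STMN2, the Notch ligands DLL1 and DLL3, and the homeobox genes LHX2 and IRX5. STMN2 had 8.28, 7.93 and 8.28 with 3 day 5-aza, against 5.93, 5.82 and 5.82 with cisplatin, where that probe was undetected, or at least 3.72-fold higher. A second STMN2 probe was detected on every array of both treatments and differed less, with 7.16, 7.62 and 7.64 with 3 day 5-aza, against 6.6, 6.31 and 6.17 with cisplatin (1.11, adjusted p = 0.0278). DLL1 had 8.96, 9.01 and 9 with 3 day 5-aza, against 7.37, 7.58 and 6.64 with cisplatin and 8.02, 8.11 and 8.3 in controls (1.79 ± 0.26, adjusted p = 0.00957). HEY2, the member lower with 3 day 5-aza, had 6.23, 6.6 and 6.52, against 8.04, 8.93 and 8.95 with cisplatin (−2.19 ± 0.28, adjusted p = 0.00624). PAX6 and SOX1, markers that define neural ectoderm, were undetected on all 6 arrays. The marker sum of PAX6, SOX1, DCX and STMN2 was 457 to 511 (linear intensity) with 3 day 5-aza, 244 to 328 with cisplatin and 324 to 371 in controls, and its part in the result was not tested. STMN2 carried the difference in that sum. DCX, the other marker detected, had 6.63, 6.88 and 6.86 with 3 day 5-aza, against 7.34, 6.88 and 6.52 with cisplatin and 7.46, 7.68 and 7.55 in controls, so the treatments overlapped and 3 day 5-aza lay below control. Under median scaling 4 neural genes were higher and 1 lower, beside 157 and 257 of all 10215 genes.

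Among retinoid and HOX genes (12 measured, median −0.13) 25% were called, beside 6.05% of all genes. With 3 day 5-aza CYP26B1 and CRABP2 were higher and CYP26A1 was lower. These encode 2 enzymes that clear retinoic acid and a protein that carries it. CYP26B1 had 7.9, 8.15 and 7.81 with 3 day 5-aza, against 5.76, 6.03 and 5.98 with cisplatin, where it was undetected (at least 3.21-fold higher). CYP26A1 had 8.59, 8.41 and 8.33 with 3 day 5-aza, against 9.6, 10.07 and 9.15 with cisplatin and 10.21, 10.37 and 9.98 in controls (−1.16 ± 0.26, adjusted p = 0.0396). The epithelial cadherin CDH1 had 9.02, 9.23 and 9.21 with 3 day 5-aza, against 7.77, 6.75 and 7.16 with cisplatin (1.93 ± 0.27, adjusted p = 0.00824), and the epithelial factor ELF3 was at 0.98. The imprinted gene DLK1 was the single called member of 18 germline and imprinted genes (1.23 ± 0.26, adjusted p = 0.0338). That was 5.56% called, beside 6.05% of all genes.

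Matrix and contractile genes split in both directions, 6 higher and 4 lower of 42 (23.8% called, beside 6.05% of all genes). Their median was −0.06. Higher with 3 day 5-aza were S100A4, COL1A1, BGN, LGALS1, CNN1 and S100A10. COL1A1, a collagen chain, had 8.66, 8.42 and 8.56 with 3 day 5-aza, against 6.95, 6.17 and 6.27 with cisplatin (2.08 ± 0.24, adjusted p = 0.00455), and the proteoglycan BGN had 8.74, 8.9 and 9.03, against 6.92, 7.18 and 6.36 with cisplatin (2.07 ± 0.24, adjusted p = 0.00483). Lower were the smooth muscle genes ACTA2 and TAGLN, the growth factor CCN2 and the collagen COL4A2. ACTA2 had 6.88, 6.53 and 6.8 with 3 day 5-aza, against 8.46, 8.61 and 7.92 with cisplatin and 5.48, 5.38 and 5.66 in controls (−1.59 ± 0.23, adjusted p = 0.0101), so both treatments lay above control and cisplatin farther. Of 5 fibroblast markers, COL1A1 alone was detected on all 3 day 5-aza arrays, and COL3A1 and LUM were undetected on them. Their summed linear intensity was 635 to 720 with 3 day 5-aza, 337 to 444 with cisplatin and 357 to 424 in controls, and its part in the result was not tested. In such bulk RNA, more cells of a type and more RNA per cell cannot be told apart.

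Interferon and antigen presentation genes were higher with 3 day 5-aza in 6 of 32 members and lower in 1 (TRIM22). That was 21.9% called, beside 6.05% of all genes, and the median was 0.38. ISG15, a ubiquitin-like interferon response protein, had 7.92, 7.98 and 8.03 with 3 day 5-aza, against 6.18, 6.75 and 6.47 with cisplatin and 5.68, 5.77 and 5.67 in controls (1.51 ± 0.21, adjusted p = 0.00824). IFI6 had 9.65, 9.33 and 9.51 with 3 day 5-aza, against 8.47, 8.41 and 7.67 with cisplatin (1.31 ± 0.25, adjusted p = 0.0246). PSME1, a proteasome activator subunit of antigen processing, had 10.27, 10.31 and 10.29, against 9.14, 8.44 and 8.54 with cisplatin (1.58 ± 0.23, adjusted p = 0.00938). IFI35 (at least 1.66-fold, undetected on every cisplatin array), IFITM1 (0.84) and the MHC light chain B2M (0.92, adjusted p = 0.0497) completed the set. Without cisplatin replicate 1, 2 or 3 it had 11, 2 or 5 members higher, and under median scaling 3. Of all 10215 genes, 1783, 238 or 428 were higher in those fits, and 157 under median scaling.

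In the ATF4 and unfolded protein list, 3 of 43 members were higher and 1 lower (9.3% called, beside 6.05% of all genes). The median was 0.33, or −0.03 under median scaling, where all genes stood at −0.22. DDIT3, the stress factor CHOP, had 9.95, 10.03 and 9.83 with 3 day 5-aza, against 7.53, 7.98 and 7.42 with cisplatin and 7.35, 7.67 and 7.52 in controls (2.29 ± 0.21, adjusted p = 0.00159). INHBE had 9.06, 8.92 and 8.92, against 6.82, 7.03 and 6.42 with cisplatin (2.21 ± 0.21, adjusted p = 0.00174), and the mitochondrial enzyme PCK2 was at 1.42 ± 0.20, adjusted p = 0.00923. The member lower with 3 day 5-aza was the endoplasmic reticulum chaperone PDIA4 (−1.75 ± 0.36, adjusted p = 0.0313). Of immediate early genes, 4 of 27 were higher (JUN, KLF2, KLF6 and DUSP5) and 4 lower (DUSP6, PHLDA1, MYC and CCN2). That was 29.6% called, beside 6.05% of all genes. DUSP6, the ERK phosphatase, had 8.34, 8.02 and 7.8 with 3 day 5-aza, against 10.37, 9.96 and 11.04 with cisplatin, and JUN had 10.53, 10.2 and 10.5, against 9.49, 9.13 and 8.55 with cisplatin.

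Mitotic genes were higher with 3 day 5-aza in 3 of 39 members (NEK2, PLK1 and CENPA), beside 4.14% of all genes, and none was lower. At an unadjusted p under 0.05, 13 were higher and 1 lower, beside 17.4% and 11.2% of all genes. Their median was 0.34, or −0.03 under median scaling, where 0 members passed, beside 157 higher and 257 lower of all 10215 genes. Without cisplatin replicate 1, 2 or 3 the list had 14, 0 or 2 members higher and 2, 0 or 0 lower. Of all genes, 1783, 238 or 428 were higher in those fits and 1132, 74 or 258 lower. PLK1, a mitotic kinase, had 9.93, 9.37 and 9.7 with 3 day 5-aza, against 8.97, 8.48 and 8.07 with cisplatin and 9.73, 9.67 and 9.67 in controls (1.16 ± 0.27, adjusted p = 0.0468), so that the 3 day 5-aza arrays overlapped control and the cisplatin arrays lay below it. A second CENPA probe gave 0.03 (adjusted p = 0.973). The list mean per array, relative to control, was −0.08, −0.07 and −0.16 with 3 day 5-aza, and −0.30, −0.49 and −0.44 with cisplatin. Of 34 replication genes, 3 were lower (RRM2, the chromatin assembly subunit CHAF1A and the DNA polymerase alpha subunit POLA1) and none higher, or 8 and 2 at an unadjusted p under 0.05. The called share was 8.82%, beside 6.05% of all genes. CHAF1A had 7.03, 7.29 and 7.64 with 3 day 5-aza, against 8.29, 9.07 and 8.9 with cisplatin (−1.44 ± 0.27, adjusted p = 0.0213).

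The DNA methyltransferases themselves did not pass between the treatments. DNMT1, the maintenance enzyme, had 13.05, 13.02 and 13.1 with 3 day 5-aza, against 13.17, 13.48 and 13.19 with cisplatin (−0.23 ± 0.18, adjusted p = 0.476, 95% interval −0.65 to 0.20). DNMT3B, a de novo enzyme, had 11.36, 11.06 and 11.26 with 3 day 5-aza, against 11.79, 11.88 and 12.93 with cisplatin and 13.09, 12.58 and 12.35 in controls (−0.98 ± 0.31, adjusted p = 0.0963), with further probes at −1.29 (adjusted p = 0.0508) and −0.90 (adjusted p = 0.051). Against control, all 3 DNMT3B probes were called lower with 3 day 5-aza, by −1.45, −1.34 and −1.18 (adjusted p = 0.000319, 0.000225 and 0.000202, limma). None was called with cisplatin (adjusted p 0.594 to 0.962). DNMT3A was at −0.79 ± 0.28 between the treatments, adjusted p = 0.125. Without cisplatin replicate 1, DNMT3A (−1.03, adjusted p = 0.0216) and DNMT3B (−1.18, adjusted p = 0.0285) passed. Of the 23 genes that methylate DNA or process its analogs, CDA, the cytidine deaminase that inactivates 5-aza, was higher (7.28, 7.35 and 7.19 with 3 day 5-aza, against 6.42, 6.04 and 5.86 with cisplatin, 1.17 ± 0.21, adjusted p = 0.0196) and RRM2 lower. Called members were 8.7% of that list, beside 6.05% of all genes. CDA was detected on 1 cisplatin array, so its size is partly against background. Of the study's demethylated genes, GPER1 (0.47), SOX15 (0.30), CD164L2 (0.15) and RIN1 (0.02) were measured and none passed. The RIN1 difference was below 0 under median scaling and under cyclic loess. RIN1 was detected on 1 array with 3 day 5-aza and 2 with cisplatin, and SOX15 on 2 in each group. Such dim probes cannot show a lack of difference. GPER1 was undetected in controls and lay 1.73 above them with 3 day 5-aza (adjusted p = 1.35e-05, limma). With cisplatin it lay 1.26 above and was not called (adjusted p = 0.33). A second GPER1 probe was at 0.14 and −0.21 against control, neither called. Among 27 death genes, HRK, a BH3-only death inducer, was higher (1.66 ± 0.23, adjusted p = 0.00824) and CYCS, cytochrome c, lower (−1.22 ± 0.28, adjusted p = 0.0449). Called members were 7.41% of the death genes, beside 6.05% of all genes.

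Genes of glycolysis and hypoxia (30 measured, median 0.12) had 4 members higher with 3 day 5-aza and 1 lower. The called share was 16.7%, beside 6.05% of all genes. NDRG1, a stress and differentiation gene, had 8.06, 8.08 and 8.05 with 3 day 5-aza, against 6.77, 6.83 and 6.33 with cisplatin (1.42 ± 0.20, adjusted p = 0.00935). ENO2, the neuronal enolase, and BNIP3, a mitophagy receptor, were higher beside TXNIP, by 1.19 and 1.13, and HK2, a hexokinase, was lower (−1.08). The cholesterol list had 0 of 23 members called and a median of −0.29, with −0.54, −0.6 and −0.59 per array relative to control with 3 day 5-aza, and −0.31, −0.18 and −0.09 with cisplatin. Histone genes (16 measured, median −0.34) had 1 called (6.25%, beside 6.05% of all genes), H2BC21, which was higher (0.96).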

How the data were processed

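RNA from NT2/D1 cells was extracted by the authors with Trizol, labelled with the Ambion MessageAmp kit, hybridised to Illumina HumanHT-12 bead chips (v4 here) and scanned on the BeadArray Reader. The deposited non-normalized table gives a probe intensity per array, made by the authors in GenomeStudio (version not given in the sources used here). The deposited detection p-value beside each intensity compares the probe with negative control beads. The authors also deposited quantile-normalized intensity values, used here only as an alternative.

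Intensities were background corrected by normexp with the detection p-values and an offset of 16, quantile normalized over the 12 arrays and taken as log2. Probes were kept at a detection p below 0.05 on at least 3 of the 6 arrays. The 6 arrays were fitted with lmFit and eBayes of limma 3.58.1 in R 4.3.3 (4 residual degrees of freedom, prior 4.67) without a replicate block, and p-values were adjusted by Benjamini-Hochberg over 16769 probes. Each treatment was fitted against the 3 controls in the same way. Adjusted p below 0.05 was called. Precision is limited by 3 arrays per group, and errors given as ± are standard errors of the fit.

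Platform annotation gave 1 symbol for 30112 probes, several for 8 and none for 17111. A probe undetected on every array of a group gives only a bound, and such folds are written as "at least". Where a group had detection on 1 or 2 arrays, the fitted difference is given and is partly against background. Genes named by rule were the 12 called genes with the largest difference each way whose arrays did not overlap and were all detected in the brighter group, up to 4 called members of each of 23 lists with the largest difference, genes the study names, POU5F1 and the DNA methyltransferases. Further list members were named after their values were seen. The members and lists were chosen with earlier results of these data known, and the metal response element was searched after the values were seen. PLK2, DPPA2, TLR4, TRIM54, STK17A, ANXA1 and ANK1 had no kept probe. Promoter windows came from RefSeq tables on GRCh38.p14. Alternatives covered normalization, offset, detection filter, arrays in the fit, weights, the replicate block and each array left out.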

Additional observations from a re-analysis of the deposited data

Results flagged for a closer look

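In 8 of the named genes every 3 day 5-aza array lay on one side of every control array and every cisplatin array on the other, and the difference of the 2 responses passed the limma test. Above control with 3 day 5-aza and below it with cisplatin were PSME1 (log2 difference of 3 day 5-aza minus cisplatin 1.58), CENPA (1.04) and LEF1 (0.95). Below control with 3 day 5-aza and above it with cisplatin were CHAF1A (−1.44), SLC30A1 (−1.58), MT1E (−2.06), LEFTY1 and PDE4B. The last 2 were undetected on every 3 day 5-aza array, so that their fitted differences (LEFTY1 −2.89, PDE4B −3.15) are against background and the bounds are at least 5.78-fold and 5.45-fold lower. Over all called genes this held for 105 of 618, and over all genes for 209 of 10215. None of the 8 named genes was called between cisplatin and control (adjusted p = 0.474 for each, limma), where 5 of 10215 genes were. LEF1 was not called between 3 day 5-aza and control either (adjusted p = 0.0717). The second CENPA probe gave 0.03, and on the second PDE4B probe cisplatin replicate 1 (6.7) lay below control replicate 1 (6.78). Outlying arrays were not tested for, because each group held 3.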

How the results depend on the processing

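All 618 called genes that were measured kept their direction in every setting tried, but the number called did not. Without 1 array in turn, 45 to 2915 genes and 53 to 4458 probes were called, and 45 to 1277 called genes lay farther from control with 3 day 5-aza. With no filter on dim probes 387 genes and 512 probes were called (350 farther), and with detection on all 6 arrays 324 genes and 411 probes (290 farther). With all 12 arrays in the fit 2617 genes and 3927 probes were called (1809 farther), and with array weights 2701 genes and 4092 probes (1558 farther). Weights by group, added after seeing the data, gave 1004 genes and 1512 probes. Under median scaling 350 called genes lay farther. The higher share was 68.4% in the reported fit, 37.9% under median scaling and 58.2% with array weights. The causes were not tested. The uncalled RIN1 difference of 0.02 was −0.12 under median scaling, −0.09 under cyclic loess, −0.02 with array weights, and −0.17 to 0.19 without 1 array. Over 14 settings other than left-out arrays, 1192 values of named genes were obtained, of which 81 lost the call and 10 gained it. Same-numbered arrays deviated together with correlations of 0.03 to 0.05, and differently numbered arrays with −0.12 to 0.09. With 3 arrays a group these values cannot decide whether the numbers pair the arrays. A replicate block gave 1000 genes and 1531 probes. Dim probes limit these data, since undetected levels give only bounds.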
